A study of Homo sapiens with 4 samples.

Results

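CDKN1C and GADD45G were followed as 2 genes linked to leaving the cell cycle, in ribosome-bound mRNA of human cells that were differentiated towards cerebellar granule cell progenitors. They are 2 of the 1648 genes that could be tied to the deposited transcripts, and together they take up 5 of the 69548 transcripts in each library. CDKN1C encodes p57KIP2, an inhibitor of cyclin-dependent kinases of the CIP/KIP family that holds cells in G1, and its gene is imprinted, with expression from the maternal copy. GADD45G encodes a small stress-response protein of the GADD45 family that binds PCNA and the CDK1-cyclin B complex and activates the kinase MAP3K4 upstream of p38. In the developing cerebellum, ATOH1-positive progenitors divide in the external granule layer, and they stop dividing before they migrate inwards as young granule neurons.

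All 4 libraries were made from clonal cells of RUES2, a human embryonic stem cell line, that carried ATOH1-EGFP-L10a. In this lentiviral transgene, the human ATOH1 enhancer drives the ribosomal subunit L10a fused to EGFP. Which clone gave each library is not stated. Cells were cultured to DIV28 (day in vitro 28). The SMAD pathway inhibitors SB431542 and LDN-193189, the WNT agonist CHIR99021 and BMP7 were given earlier and ended well before DIV28. FGF2 and BDNF were given until DIV28, as was puromycin, which the paper describes for its transgenic lines. Cycloheximide was added before lysis to hold ribosomes on mRNA. The 3 IPs, from 3 independent differentiation experiments, hold mRNA pulled down with GFP antibodies (TRAP), and the single input holds RNA without this selection. The enhancer sets which cells are tagged, so the IPs stand for cells in which it is or has recently been active. The input is taken here for the mixed culture. A figure legend of the paper also calls it unbound, which could mean RNA left after the pull-down. Which of these it was is not settled here, and ratios to the input carry this limit. In such lysates, fewer cells with a transcript and less of it per cell cannot be told apart.

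The depth was 34603230, 36860319 and 37719839 estimated reads in IPs 1, 2 and 3, against 41173019 in the input. The deposit is at odds with itself on which library is the input. The sample labelled input is titled with a tag that the file of a sample labelled IP bears, and its own file bears the tag of an IP. Here the library whose file has the input's tag is called the input, and IPs are numbered by their file tags. The IPs share a tag stem that the input does not bear, and what it stands for is not given. A difference that goes with this tag cannot be told apart from the pull-down. Whether the input came from the same differentiations as the IPs is not stated. ATOH1, the factor whose enhancer drives the transgene, stood at 37.8, 50.6 and 44.1 TPM in the IPs and at 0.304 TPM in the input. TPM is a level corrected for transcript length and scaled to the library's total. CPM is the read count scaled to a library size adjusted by TMM, a scaling between libraries, without correction for length. The library labelled input thus held 37.8 TPM of ATOH1. With the groups set by the file tags, the study's own mean counts and log2 fold changes were matched for 1648 of 1998 genes. A match under the labels' assignment was not tried. Values under the labels' assignment are given for CDKN1C and GADD45G. Under that assignment edgeR called 0 features in either direction (1035 higher and 231 lower at p under 0.05 before adjustment). No edgeR call given here for any gene therefore holds with it, and the transcripts of CDKN1C were not tested on their own under it.

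The sequences below show where the transcripts of the 2 genes lie and what sets them apart. CDKN1C lies on the minus strand of chromosome 11 at 2904443 to 2907005 (hg19), and GADD45G on the plus strand of chromosome 9 at 92219927 to 92221470. No other GENCODE gene overlaps either of them on either strand. Of CDKN1C, 4 transcripts of 1763, 1758, 1930 and 1925 bases were measured. Their lengths equal those of GENCODE's CDKN1C-203 (1930 bases) with or without a first intron of 167 bases, at 2906697 to 2906863, and with a last exon that begins at 2905145 or 5 bases further on, at 2905140. The intron is set off by the following donor and acceptor, where capitals mark its first and last 2 bases, read on the minus strand of hg19 from chr11:2906854-2906873 and chr11:2906687-2906706.
CDKN1C donor: ggacagccagGTagccgccg
CDKN1C acceptor: ccctccgcAGcacatccacg
Whether the intron is kept decides which start codon the annotation uses. The upstream start codon lies inside the intron and opens a reading frame of 316 codons in CDKN1C-203. With the intron removed, as in CDKN1C-204, the frame opens 11 codons later and has 305 codons. Both are in 1 stretch of chr11:2906684-2906719, with the start codons in capitals.
CDKN1C start codons: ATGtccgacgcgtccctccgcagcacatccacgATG

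GADD45G was measured as 1 transcript of 1065 bases, 1 base less than the GENCODE transcript GADD45G-201 with its 4 exons and 159 codons. Its promoter is shown since it bears on E-boxes, the short sites (CANNTG) that basic helix-loop-helix factors such as ATOH1 bind. The 250 bases before its start, from RefSeq on GRCh38.p14 at chr9:89604762-89605011, plus strand, hold 2 CANNTG motifs and 1 TATAA motif, all in capitals.
GADD45G promoter: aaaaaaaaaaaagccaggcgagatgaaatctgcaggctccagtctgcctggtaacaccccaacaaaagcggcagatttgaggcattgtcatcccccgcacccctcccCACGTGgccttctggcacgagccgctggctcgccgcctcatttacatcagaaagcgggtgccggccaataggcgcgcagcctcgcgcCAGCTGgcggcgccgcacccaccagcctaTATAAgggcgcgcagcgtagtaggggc
The CAGCTG motif begins 56 bases before the start, the CACGTG motif 143 bases and the TATAA motif 27 bases before it. Searched on both strands, CANNTG was found in 61.8% of 35116 RefSeq promoter windows of 250 bases, CAGCTG in 14.0%, CACGTG in 6.34% and TATAA in 18.9%. CAGCTG and CACGTG are themselves forms of CANNTG, and a match is a description of the letters only. Of the 2 genes, 1 was matched in the promoter table, and no promoter is shown for CDKN1C.

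Both genes were more abundant in the IPs than in the input, GADD45G by the larger factor. CDKN1C, the CDK inhibitor, had 31.6, 34.6 and 39.1 TPM in IPs 1, 2 and 3, against 8.44 TPM in the input. GADD45G had 70.1, 59.4 and 39.8 TPM in the IPs, against 4.68 TPM in the input. All 3 IPs lay above the input for both genes, a pattern found in CPM for 28.2% of all features tested and 51.0% of the joined genes.

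**Figure D1:**
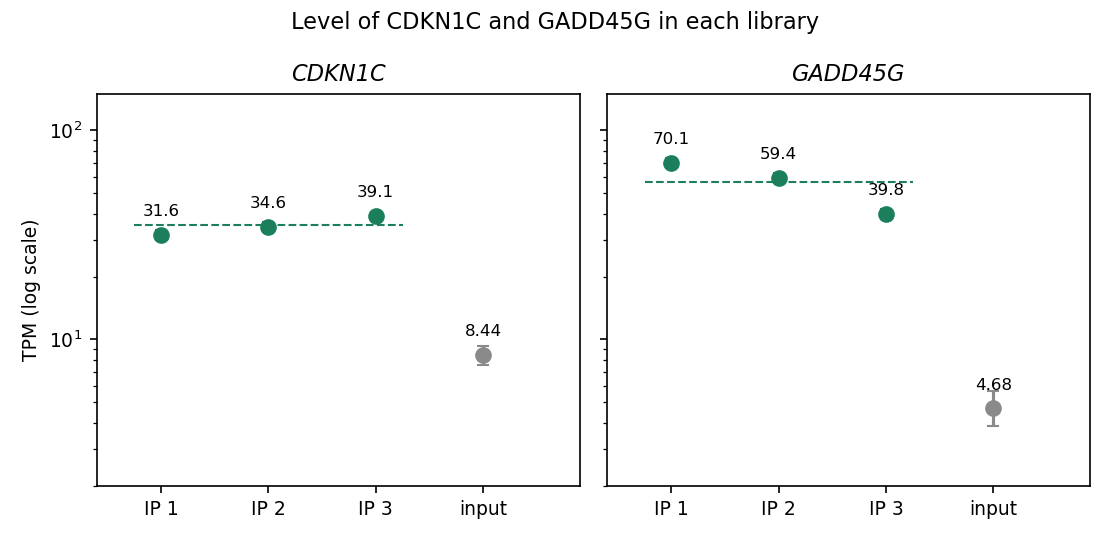
TPM of CDKN1C (left) and GADD45G (right) in IPs 1, 2 and 3 (green) and the input (grey), on a log axis. Bars are 95% Poisson intervals of the reads, covering counting error only, and dashed lines are the means of the IPs, 35.1 and 56.4 TPM. Every IP lies above the input, at 8.44 and 4.68 TPM.

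In estimated reads, CDKN1C had 1460, 1690 and 2035 in the IPs, against 363 in the input. GADD45G had 1735, 1561 and 1108 reads in the IPs, against 108 in the input. The input values carry most of the counting error, with 95% Poisson intervals of 327 to 402 reads for CDKN1C and 88.6 to 130 for GADD45G. Since the reads carry no molecular identifiers and are not independent molecules, these intervals cover counting error only.

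The mean ratio of IP to input in TPM was 4.16 ± 0.446 for CDKN1C and 12.0 ± 3.28 for GADD45G (SD, n = 3). The counting error of the input alone puts these ratios at 3.76 to 4.63 for CDKN1C and 9.98 to 14.7 for GADD45G. All 3 ratios of a gene share the same input. In CPM scaled by TMM, CDKN1C averaged 47.2 ± 7.25 in the IPs (SD, n = 3) and 8.97 in the input, a ratio of 5.26. GADD45G averaged 40.2 ± 9.41 CPM in the IPs (SD, n = 3) and 2.67 CPM in the input, a ratio of 15.1.

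In the test across all features, the log2 fold change of CDKN1C was 2.40 (SE 0.27) with an adjusted p of 0.0372 from the quasi-likelihood test of edgeR. That of GADD45G was 3.91 (SE 0.42) with edgeR's adjusted p = 0.0357. Both were called higher, as were 2.30% of the 43823 features tested and 29.1% of the 1648 joined genes. The joined genes were tied to symbols through the part of the study's table with its strongest calls, so being called is no independent finding for them. Their log2 fold changes had to equal the study's to be joined, so size and direction are no independent finding either. Their log2 fold changes had a median of 0.80, against 0.10 over all features tested, and CDKN1C was the 184th and GADD45G the 65th highest among them.

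The spread in this test came from the 3 IPs, and the single input was assumed to vary like them. Without IP 1, 2 or 3, the log2 fold changes stayed between 2.26 and 2.49 for CDKN1C and between 3.76 and 4.08 for GADD45G, but edgeR called neither gene, nor any other feature. The adjusted p from edgeR without IP 1, 2 and 3 was 0.154, 0.197 and 0.107 for CDKN1C and 0.154, 0.194 and 0.107 for GADD45G. With limma-voom the adjusted p was 0.0814 for CDKN1C and 0.113 for GADD45G, so that neither was called. DESeq2 called both, with adjusted p of 2.27e-19 for CDKN1C and 4.04e-25 for GADD45G, beside 15.1% of all features called higher. Under the labels' assignment, the log2 fold change of CDKN1C was -0.16 (adjusted p = 1, edgeR) and that of GADD45G -0.96 (adjusted p = 1, edgeR). The 3 libraries labelled IP then averaged 27.4 ± 16.6 TPM of CDKN1C (SD, n = 3) and the one labelled input held 31.6 TPM. For GADD45G they averaged 34.6 ± 27.7 TPM (SD, n = 3), and the library labelled input held 70.1 TPM.

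**Figure D2:**
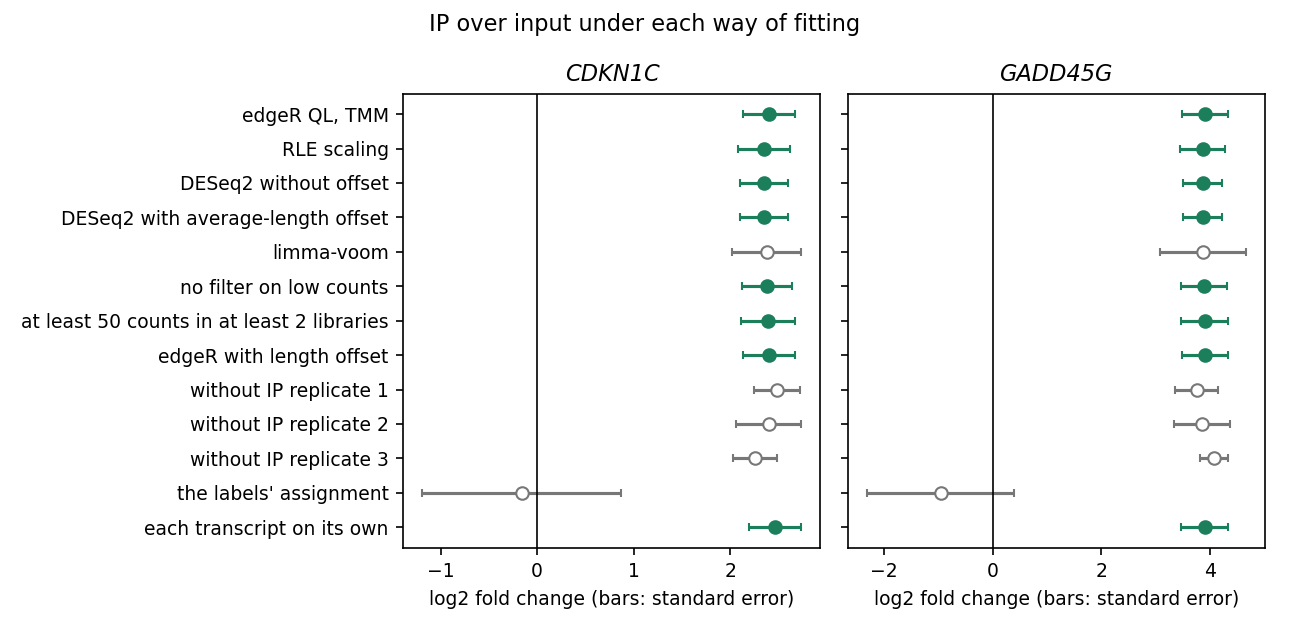
Log2 fold change of IP over input (horizontal axis, bars are standard errors) for CDKN1C (left) and GADD45G (right) with edgeR and TMM, at the top, and under each alternative. Filled green points have an adjusted p under 0.05 and open grey points do not. With each transcript on its own, the point for CDKN1C is that of its transcript with the most reads. All values lie between 2.26 and 2.49 for CDKN1C and 3.76 and 4.08 for GADD45G except under the labels' assignment, at -0.16 and -0.96.

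Among the IPs, the 2 genes did not vary together. IP 3 had the highest level of CDKN1C and the lowest of GADD45G, and IP 1 had the reverse. The coefficient of variation over the IPs was 15.3% for CDKN1C and 23.4% for GADD45G in CPM. Within a library, where no scaling between libraries enters, there were 1.19, 0.924 and 0.544 GADD45G reads per CDKN1C read in IPs 1, 2 and 3, against 0.298 in the input. The exact 95% interval of the input ratio was 0.238 to 0.370, for counting error only, and each IP lay above it. The mean of the IPs was 0.886 ± 0.324 (SD, n = 3), 2.98 times the input ratio, and the log2 fold changes of the 2 genes differed by 1.52. Under the labels' assignment the direction turned, with a mean of 0.589 in the 3 libraries labelled IP, against 1.19 in the library labelled input. With 3 libraries against 1, no exact permutation test can give a p below 0.25, so this difference was not tested. Per transcript length, GADD45G exceeded CDKN1C in the IPs, at 2.21, 1.72 and 1.02 TPM per TPM of CDKN1C, and lay below it in the input, at 0.555.

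**Figure D3:**
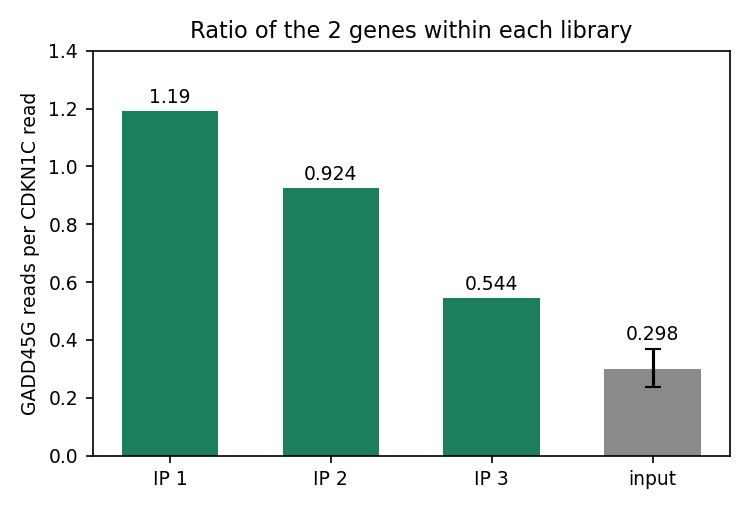
GADD45G reads per CDKN1C read within IPs 1, 2 and 3 (green) and the input (grey). The bar on the input is the exact 95% interval, 0.238 to 0.370, for counting error only. The IPs stand at 1.19, 0.924 and 0.544, above this interval.

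The transcripts of CDKN1C differed widely in abundance, and 1 of them carried most reads in every library. This was uc001lwu.4, the form of 1763 bases without the first intron and with the longer last exon. It held 88.7%, 88.9% and 86.3% of the gene's estimated reads in IPs 1, 2 and 3, against 83.8% in the input. The form of 1758 bases (uc009ydr.3), which also lacks the intron, held 6.61%, 9.75% and 6.73% in the IPs, against 10.1% in the input. The forms without the intron, whose annotated frame begins at the second of the start codons printed above, thus summed to 95.7 ± 2.86% in the IPs (SD, n = 3). In the input they summed to 93.8%, with a 95% Wilson interval of 91.0% to 96.0%. The input value lay within the range of the IPs, from 93.0% to 98.7%.

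The forms that keep the intron held 4.70%, 1.32% and 7.02% of CDKN1C reads in IPs 1, 2 and 3, against 6.18% in the input. They differ from the others by the 167 bases of the intron, and all 4 forms share most of their sequence, so these shares are Salmon's estimates of how reads divide among near-identical transcripts. Tested on its own, the form of 1763 bases had a log2 fold change of 2.47 (SE 0.27) with edgeR's adjusted p = 0.0400. The forms of 1758, 1930 and 1925 bases had log2 fold changes of 1.98, 1.94 and 2.05 with edgeR adjusted p of 0.300, 0.595 and 0.678, and were not called. Their counts were low, with 36.5, 18.5 and 3.95 reads in the input. Whether the forms differed in fold change was not tested.

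**Figure D4:**
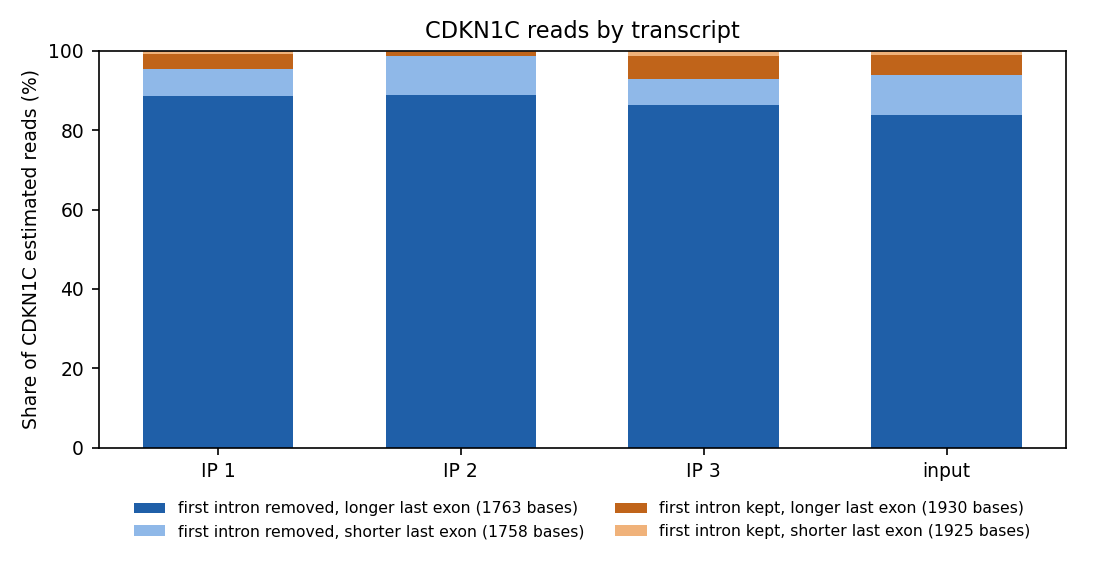
Share of CDKN1C's estimated reads (percent, vertical axis) on each of its 4 transcripts in IPs 1, 2 and 3 and the input. Blue forms lack the first intron and orange forms keep it. The dark blue form of 1763 bases holds 83.8% to 88.9% in every library.

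Other genes linked to cell cycle exit did not share one direction. Of 25 genes on the list, 8 were joined, and beside CDKN1C and GADD45G these were 6, of which 1 was called higher, 3 lower and 2 neither. The median log2 fold change of these 6 was -1.73, that of all 8 was -0.18 and that of all features tested 0.10. In the background, 29.1% of the joined genes were called higher and 26.9% lower, and 1.48% of all features tested were called lower. The gene called higher was BTG1, an antiproliferative factor of the BTG/TOB family, at 62.7, 68.5 and 62.9 TPM in the IPs, against 38.7 TPM in the input (edgeR log2 fold change 1.08 with adjusted p = 0.0401). Its relative BTG3 had 68.0, 72.6 and 72.7 TPM in the IPs, against 43.4 TPM in the input, with an adjusted p of 0.0532 from edgeR.

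CDKN2B, which encodes the CDK4 and CDK6 inhibitor p15INK4B, went the other way from CDKN1C. It had 2.92, 3.16 and 3.65 TPM in the IPs, against 69.8 TPM in the input (edgeR log2 fold change -4.09 with adjusted p = 0.0161). CDKN2A, the neighbouring gene for p16INK4A and p14ARF, had 4.18, 4.54 and 3.59 TPM in the IPs, against 22.9 TPM in the input, with an edgeR adjusted p of 0.0761. CDKN2B-AS1 overlaps both on the other strand, and since the counting is not stated to use strand, its reads cannot be told apart from theirs. The kinase gene PLK2, a target of p53, was lower at 25.7, 24.7 and 27.3 TPM in the IPs, against 135 TPM in the input (edgeR log2 fold change -2.05 with adjusted p = 0.0224). TP53INP1, another p53 target, was lower at 10.9, 9.54 and 10.5 TPM in the IPs, against 34.5 TPM in the input (edgeR log2 fold change -1.41 with adjusted p = 0.0328).

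Genes for cyclins, CDKs and their regulators, and for partners of GADD45 proteins, were joined in small part only. Of 24 genes for cyclins, CDKs and their regulators, 1 was joined, the SCF ubiquitin ligase subunit RBX1. It had 918, 855 and 923 TPM in the IPs, against 534 TPM in the input, and was called higher (edgeR log2 fold change 1.09 with adjusted p = 0.0397). Of 18 partners of GADD45 proteins, 1 was joined, MAPK14, which encodes the p38 alpha kinase downstream of MAP3K4. It had 9.56, 14.1 and 10.9 TPM in the IPs, against 34.0 TPM in the input, with an edgeR adjusted p of 0.114.

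Of the listed genes that dividing cells express, few were joined, and 14 of these 19 were called lower. For comparison, 26.9% of the joined genes and 1.48% of all features were called lower, and the joined genes had been picked by the study's calls. Of 30 genes of G1 and S phase, 5 were joined and 4 of these were called lower, with a median log2 fold change of -1.24. Among them MCM4, a subunit of the replicative helicase, had a log2 fold change of -1.28 (adjusted p = 0.0361, edgeR), and UHRF1, which maintains DNA methylation after replication, one of -1.79 (adjusted p = 0.0440, edgeR). RRM1 and RRM2, the subunits of ribonucleotide reductase, had log2 fold changes of -1.07 and -1.24 (adjusted p = 0.0474 and 0.0411, edgeR). Of 41 genes of G2 and M phase, 14 were joined and 10 of these were called lower, with a median of -1.54, and none was called higher. The microtubule regulators CKAP5 and TPX2 had log2 fold changes of -1.87 and -1.50 (adjusted p = 0.0224 and 0.0292, edgeR). The spindle motor KIF11 and the cytokinesis factor RACGAP1 had log2 fold changes of -1.76 and -1.72 (adjusted p = 0.0295 and 0.0304, edgeR).

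**Figure D5:**
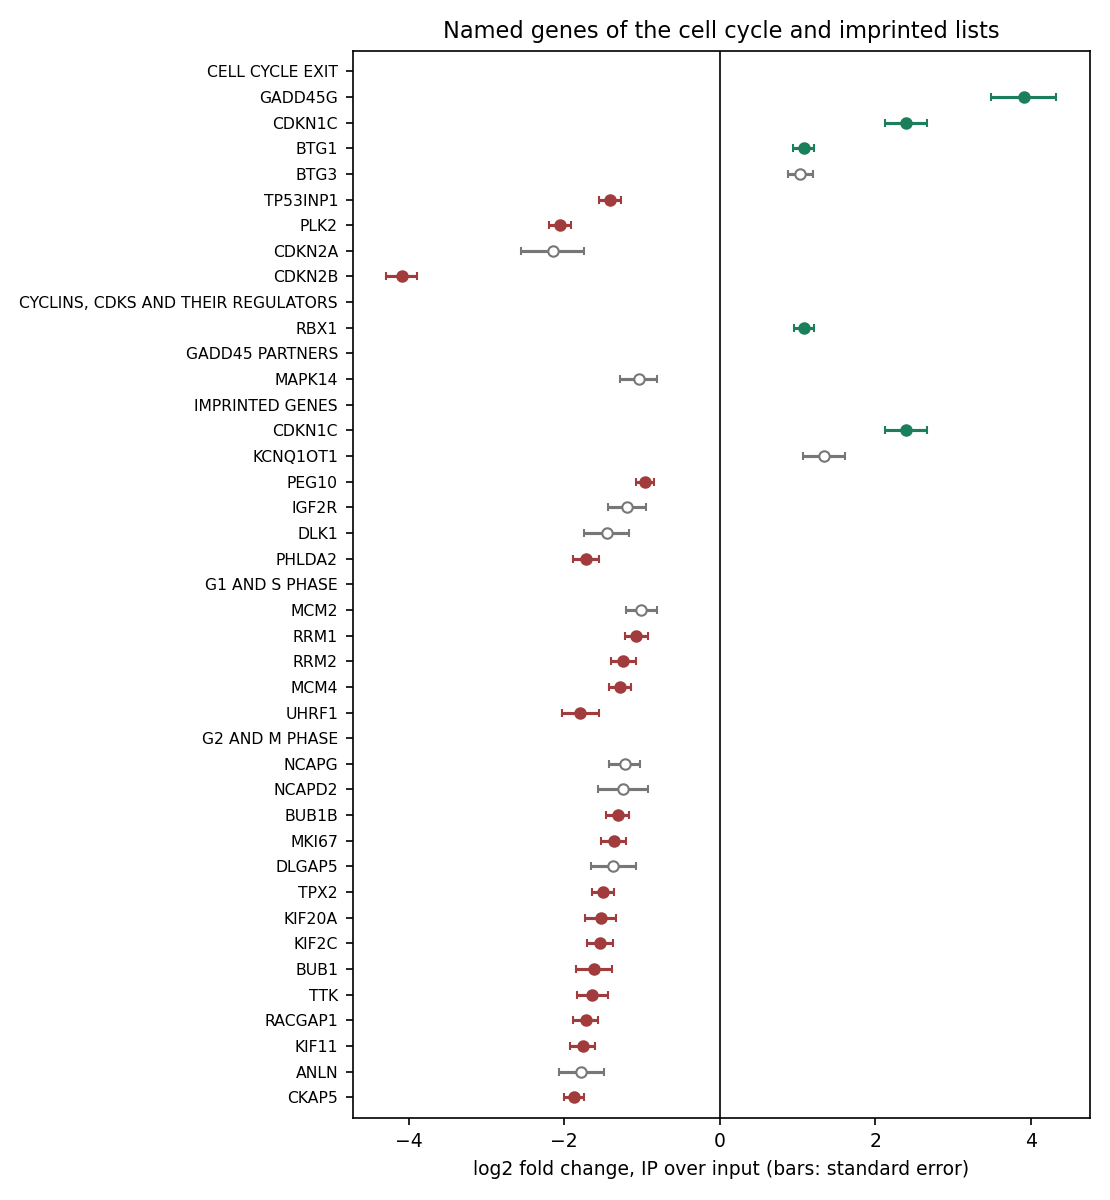
Log2 fold change of IP over input (horizontal axis, bars are standard errors from edgeR) of the joined genes of 6 lists. Filled green points were called higher, filled red points lower and open points neither. GADD45G at 3.91 and CDKN1C at 2.40 lead the exit list, whose lowest gene is CDKN2B at -4.09, and all joined genes of G1, S, G2 and M phase lie below 0.

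CDKN1C stands in an imprinted cluster of chromosome 11, of which PHLDA2 and KCNQ1OT1 were also joined. PHLDA2, a growth-restraining gene that like CDKN1C is expressed from the maternal copy, had 31.3, 30.6 and 27.3 TPM in the IPs, against 123 TPM in the input (edgeR log2 fold change -1.72 with adjusted p = 0.0310). KCNQ1OT1, the long noncoding RNA of the paternal copy that silences the cluster there, had 2.08, 1.78 and 2.47 TPM in the IPs, against 1.05 TPM in the input, with an edgeR adjusted p of 0.0840. It lies antisense to KCNQ1, whose reads cannot be told apart from its own. The same limit holds for other named genes with a gene on the other strand. Among these are BTG1, BTG3, TP53INP1, MAPK14, RRM1, RRM2, RACGAP1, PEG10, IGF2R and HES6. Of 26 imprinted genes, 6 were joined, of which CDKN1C alone was called higher and 2 were lower. The other lower one was PEG10, a gene of retrotransposon origin, at 50.8, 56.5 and 49.7 TPM in the IPs, against 128 TPM in the input (edgeR log2 fold change -0.96 with adjusted p = 0.0409). DLK1 and IGF2R had log2 fold changes of -1.45 and -1.19 with edgeR adjusted p of 0.0828 and 0.0832.

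The joined genes most like CDKN1C were SLC38A4, EFEMP1, CRB2, CHL1 and CKB. Likeness was the Euclidean distance of log2 CPM over the 4 libraries after each gene was centred on its mean, and it was 0.09 to 0.23 for these 5. SLC38A4, an amino acid transporter gene, had 16.0, 18.0 and 20.9 CPM in the IPs, against 3.71 CPM in the input. Among the genes most like GADD45G were YEATS2, UNC5A, RARRES2 and SSTR2, at distances of 0.11 to 0.35. UNC5A, which encodes a netrin receptor, had 31.7, 25.1 and 22.0 CPM in the IPs, against 1.66 CPM in the input. CDKN1C and GADD45G themselves were 1.53 apart, so neither is on the list of the other. With 4 libraries, of which 3 are alike, such distances mostly follow the fold change.

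Joined markers of several cell types differed in the same comparison, in which 29.1% of joined genes and 2.30% of all features were called higher, and 26.9% and 1.48% lower. Of 20 markers of granule cell progenitors and the rhombic lip, 10 were joined and 9 called higher, and their summed level was 1246 to 1885 TPM in the IPs against 100 TPM in the input. HES6 and MSX1, singled out after their values were seen, made up most of this sum, and without them it was 206, 236 and 208 TPM in IPs 1, 2 and 3, against 27.4 TPM in the input. INSM1, WNT1, NHLH1 and ATOH1 had log2 fold changes of 5.12, 7.51, 6.32 and 7.49, above that of GADD45G. Of 17 young neuron markers, 15 were joined and 12 called higher, at a sum of 1467 to 1655 TPM in the IPs, against 568 TPM in the input. TAGLN3 and CNTN2 had log2 fold changes of 3.84 and 4.61, and SOX11 and SNAP25 of 1.85 and 1.66, so that the value of CDKN1C lies between these pairs. Of 29 proneural and NOTCH genes, 12 were joined, of which 8 were called higher, among them the NOTCH ligand gene DLL3 at 4.63, and 1 lower.

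Of 28 markers of mesenchyme, vessels and neural crest, 7 were joined and 4 called lower, at a sum of 349 to 402 TPM in the IPs against 1974 TPM in the input. ADGRL4 and TM4SF1, both known from endothelium, had log2 fold changes of -3.38 and -4.17, and COL1A1 and CSPG4 of -1.46 and -3.13. Of 8 markers of choroid plexus, glia and ependyma, 4 were joined, at a sum of 75.7 to 91.8 TPM in the IPs, against 97.9 TPM in the input. FOXJ1 alone among these was called higher (log2 fold change 3.74), and FABP7, S100B and AQP1, at 1.75, -1.59 and -2.60, were not called. Of the 3 pluripotency markers LIN28A was joined, at 6.75, 7.04 and 3.79 TPM in the IPs, against 0.812 TPM in the input, and was not called. A gene with no reads in the input could not be joined, so that none of the joined markers was at 0 there is no finding. The part of these marker differences in the levels of CDKN1C and GADD45G was not tested.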

How the data were processed

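RNA-seq of 3 TRAP IPs and 1 input was used. The authors amplified full-length cDNA (SMART-Seq v4), made Nextera XT libraries, sequenced single reads and quantified them with Salmon 0.8.2 against UCSC known genes of hg19. Deposited for each of 69548 transcripts are an estimated count and a TPM, as Salmon wrote them. The files name no genes. A gene was joined where a run of 1 to 20 neighbouring transcripts matched, when summed, a row in the study's table. The mean count had to lie within 2% and the log2 fold change within 1e-05 of that row. The table served for naming, but a joined gene thereby has the fold change that the study found in these libraries. Of 1998 rows used, 1648 were joined. The median difference in log2 fold change was 2.05e-06. Scaling for this match was fitted on 482 transcripts. Joined genes were summed and all other transcripts kept on their own, which departs from a pure gene table.

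Estimated counts were rounded and tested with edgeR 4.0.16 in R 4.3.3 (TMM, default filter with minimum count 10, quasi-likelihood test, Benjamini-Hochberg over all features, threshold 0.05), with a standard error taken as the log2 fold change over the root of its F. Other settings tried were RLE scaling, DESeq2 1.42.0 (also with a length offset), limma 3.58.1 (voom), no filter, at least 50 counts in 2 libraries, an edgeR length offset, each IP left out, the labels' assignment, and each transcript alone. Functions were tested on simulated data. Independent differentiations are given for the IPs, so p-values cover the spread between these.

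Named genes were CDKN1C and GADD45G, all joined members of the exit, cyclin, GADD45 partner and imprinted lists, up to 4 with the smallest p from other lists, and the 5 joined genes most like each member by log2 CPM (prior count 0.5), of which 1 is not reported here. The figure of list genes shows further members. The members and lists were chosen with earlier results of these data known.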

Additional observations from a re-analysis of the deposited data

How the results depend on the processing

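Under 7 of the 12 alternatives both genes kept their direction and their call. In 1 of these, with each transcript alone, CDKN1C was judged by its transcript with the most reads, uc001lwu.4. Its other transcripts were not called there. With limma-voom the log2 fold changes were 2.38 for CDKN1C and 3.88 for GADD45G, neither called. Leaving out 1 IP gave 2.26 to 2.49 for CDKN1C and 3.76 to 4.08 for GADD45G, neither called. The labels' assignment gave -0.16 and -0.96. The cause of these lost calls was not tested.

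edgeR with TMM and its default filter called 1006 features higher and 648 lower. DESeq2 called 5756 higher and 4029 lower, 5780 and 4043 with the length offset, and edgeR after the filter of 50 counts called 1868 and 1149. Limma-voom called 0 in either direction, with 3793 features higher and 6406 lower before adjustment (p under 0.05). edgeR called 0 in either direction without any 1 IP, with 3577 to 4270 and 3129 to 3674 before adjustment, and 0 under the labels' assignment, with 1035 and 231.

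The ratio of IP to input for CDKN1C was 5.26 in CPM in place of 4.16 in TPM. Under the labels' assignment the TPM ratios were 0.866 for CDKN1C and 0.494 for GADD45G. GADD45G per CDKN1C in the IPs was 1.65 in TPM in place of 0.886 in reads. Leaving out 1 IP gave TPM ratios of 3.93 to 4.37 for CDKN1C and 10.6 to 13.8 for GADD45G. Without the fold change, mean count alone fits 340 sums of transcripts within 0.1% for CDKN1C and 265 for GADD45G, and 6947 and 5812 within 2%, so identity rests on both values and on transcript length. No paired analysis was possible because the input is a single library.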
